A study of Mus musculus with 8 samples.

Results

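The immunoglobulin heavy variable (Ighv) segments were followed as array probes whose description names an immunoglobulin heavy variable gene and not a pseudogene, and which the scanner marked as well above background on each array of 1 or more of the 4 groups. Of 106 candidate probes for 101 segments, 86 probes for 82 segments met this rule, out of 32041 probes for 21520 genes of the whole array that met the same background criterion. The other 20 candidates were left out of the tests, and 13 of those were not well above background on any array. The RefSeq table (GRCm38.p6) matched 103 of the 106 names and lists 97 as V segments and 6 as V segment pseudogenes; the remaining 3 probes carry only the name of a cDNA clone. The rule is not independent of the levels: 13 members passed it only through the tumour-bearing group with control antibody and 1 (Ighv11-2) only through the tumour-bearing group with anti-IL-6R. Counts are therefore led by the 43 members that were well above background on all 8 arrays.

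A heavy chain gene is assembled in developing B cells by joining a V segment to a D and a J segment, and a B cell clone usually carries a single productive heavy chain rearrangement. The joined exon is spliced first to the mu and delta constant exons and, after class switching, to a gamma, epsilon or alpha constant region. Antibody-secreting plasma cells hold far more heavy chain RNA than resting B cells, and mature T cells are not known for V segment rearrangement of this locus.

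The samples were CD4+ T cell isolates from C57BL/6 mice, 1 array per sample and 2 per group. Every mouse was given T cells (CD4+, receptor-transgenic, specific for ovalbumin, OVA) and then dendritic cells loaded with OVA peptide, and CD4+ T cells were taken 4 days after that immunisation. The groups were tumour-free mice with control antibody (replicates 1 and 2), mice bearing the OVA-expressing fibrosarcoma MCA205 with control antibody (replicates 3 and 4), tumour-free mice with an antibody to the interleukin-6 receptor, anti-IL-6R (replicates 5 and 6), and MCA205-OVA-bearing mice with anti-IL-6R (replicates 7 and 8). The study asked what changes in CD4+ T cells primed in tumour-bearing mice and what blocking IL-6 signalling does to it; the sources used here give neither the purity of the isolates nor the number of mice per sample.

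Levels are log2 of the background-subtracted signal minus the 75th percentile of that array (500.3 to 526.6 signal units), so 0 is that percentile. On each array 53.1% to 59.8% of probes were well above background. All arrays came from 1 slide, with control antibody in 1 column and anti-IL-6R in the other and with tumour-free and tumour-bearing samples in different rows, so the slide position and the groups cannot be told apart. The T cell genes Cd3d, Cd3e, Cd3g and Cd4 were well above background on all arrays. So were the B cell genes Ms4a1, Cd79a, Cd79b and Pax5. The design text speaks of 2 independent experiments per condition and does not say which arrays of different groups, if any, share an experiment. Errors and p-values therefore treat the arrays of a group as independent of those of other groups. They rest on the spread between the 2 arrays of a group, pooled over all 4 groups and moderated over the probes. Arrays outside a comparison thus also widen or narrow its errors. Replicate 5 stood apart for the heavy variable segments: 41 of the 43 members on all arrays were lower in it than in replicate 6, with a median gap of -0.61, while the median gap over all kept probes was 0.02.

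The probes are 60 bases long and read the germline V exon. They lie on the minus strand of chromosome 12 in the mm9 build that the scanner headers name, and the 103 probes with a position spread over about 2431 kb. The first 3 sequences show where a probe can end: capitals mark TACTGTG, codons for Tyr and the conserved Cys with the next base, which stand near the 3' end of a V exon. These letters, searched on both strands, occurred in 7 of the 86 member probes and in 1.1% of the 32041 kept probes. The sequences come from Ighv14-3 (chr12:115298056-115298115), Ighv3-8 (chr12:115560585-115560644) and Ighv5-12-4 (chr12:115000460-115000519).
Ighv14-3: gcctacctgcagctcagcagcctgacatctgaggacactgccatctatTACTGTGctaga
Ighv3-8: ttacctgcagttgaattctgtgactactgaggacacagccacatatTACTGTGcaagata
Ighv5-12-4: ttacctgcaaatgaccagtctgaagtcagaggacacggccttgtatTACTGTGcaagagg
The Ighv1-33 probe (chr12:117247846-117247905; a V segment pseudogene in RefSeq) runs past these codons, and capitals mark CACAGTG, the letters of the heptamer at which V segments are cut and joined. Recombination removes this flank from a rearranged gene. Ighv1-33 was the only member with this heptamer on either strand, against 1.42% of all kept probes.
Ighv1-33: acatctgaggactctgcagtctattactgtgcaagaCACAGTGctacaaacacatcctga

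Members share sequence, so they are not independent readouts. Of the 86, 55 shared a run of at least 20 identical bases with another member, and 24 shared at least 30. The longest run, 45 bases, joined Ighv1-73 (chr12:117028879-117028938) and Ighv1-83 (chr12:117202095-117202154), and stands in capitals in both.
Ighv1-73: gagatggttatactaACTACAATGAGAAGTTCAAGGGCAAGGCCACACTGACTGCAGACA
Ighv1-83: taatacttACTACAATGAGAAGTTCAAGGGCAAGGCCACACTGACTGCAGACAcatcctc
The closest pair over the whole probe was Ighv1-15 (chr12:115895649-115895708) and Ighv1-23 (chr12:116002746-116002805), identical at 58 of 60 bases. The substitutions, from Ighv1-15 to Ighv1-23 and counted from 1 at the 5' end, are G17T and T57C, and the capitals mark them.
Ighv1-15: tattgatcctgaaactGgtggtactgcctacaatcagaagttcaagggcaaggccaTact
Ighv1-23: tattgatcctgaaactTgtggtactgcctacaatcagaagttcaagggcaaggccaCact
The last 4 sequences belong to members on which the results below turn: Ighv1-39 (chr12:116153003-116153062), Ighv1-9 (chr12:115821969-115822028), Ighv9-2 (chr12:115347272-115347331) and Ighv11-2 (chr12:115286517-115286576), whose V family is known for its use by B-1 cells that bind phosphatidylcholine.
Ighv1-39: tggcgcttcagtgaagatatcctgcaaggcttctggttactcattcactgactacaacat
Ighv1-9: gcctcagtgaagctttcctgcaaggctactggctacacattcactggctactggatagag
Ighv9-2: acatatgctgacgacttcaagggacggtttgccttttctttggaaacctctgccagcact
Ighv11-2: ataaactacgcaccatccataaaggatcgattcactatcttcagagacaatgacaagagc

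With control antibody, heavy variable segments were higher in the isolates from tumour-bearing mice than in those from tumour-free mice. Of the 43 members on all arrays, 42 rose past an adjusted p of 0.05 in limma's moderated test (Benjamini-Hochberg over 32041 probes) and none fell; among all probes well above background on all arrays, 3.32% were called higher. The exception was Ighv6-3, with a difference of 1.06 ± 0.38 (SE from all 4 groups of 2 arrays, adjusted p = 0.14). Its replicates spread most in tumour-free mice with anti-IL-6R (SD 0.91), a group outside this comparison. In the groups compared the SD was 0.38 without and 0.21 with a tumour. The median log2 difference of these 43 was 1.82, against 0.01 over the 28103 probes on all arrays. Over all 86 members, 62 were called higher, none lower and 24 neither, where 3.36% of all kept probes were called higher and 1.89% lower. In bulk isolates, fewer cells of a type and less RNA per cell cannot be told apart.

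Ighv1-39 had the smallest adjusted p together with Ighv1-9. The level of Ighv1-39 was -2.14 and -1.95 in tumour-free mice and 0.01 and 0.11 in tumour-bearing mice, a difference of 2.10 ± 0.12 (SE; adjusted p = 0.00035). Ighv1-9 went from -2.32 and -2.04 to 0.13 and 0.14, a difference of 2.32 ± 0.13 (adjusted p = 0.00035). For both members the arrays of the groups did not overlap, and the replicates lay close together.
Ighv9-2 had the largest difference among members on all arrays. Its level was -2.89 and -2.65 in tumour-free mice and 0.32 and -0.24 in tumour-bearing mice, a difference of 2.81 ± 0.25 (adjusted p = 0.0017), or 7.00-fold. Its family member Ighv9-3 went from -2.23 and -2.22 to 0.30 and -0.15, a difference of 2.30 ± 0.19 (adjusted p = 0.0011). Both tumour-bearing arrays exceeded both tumour-free arrays in each of the 43 members on all arrays, and in 83 of the 86 members. Of the 86, 13 were kept only through the tumour-bearing group with control antibody, so they do not count as support. Of all kept probes 27.8% showed this pattern in this direction and 24.6% in the other, which no member showed.

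The 5 members with the highest mean level over all arrays were Ighv14-3, Ighv1-64, Ighv1-7, Ighv1-52 and Ighv1-77, and all 5 rose. Ighv14-3 went from -0.05 and -0.04 to 2.01 and 1.80, a difference of 1.95 ± 0.18 (adjusted p = 0.0017). Ighv1-64 went from -0.63 and -0.50 to 1.58 and 1.44, a difference of 2.08 ± 0.18 (adjusted p = 0.0016). The differences of Ighv1-7, Ighv1-52 and Ighv1-77 were 2.00, 1.69 and 1.93.

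**Figure D1:**
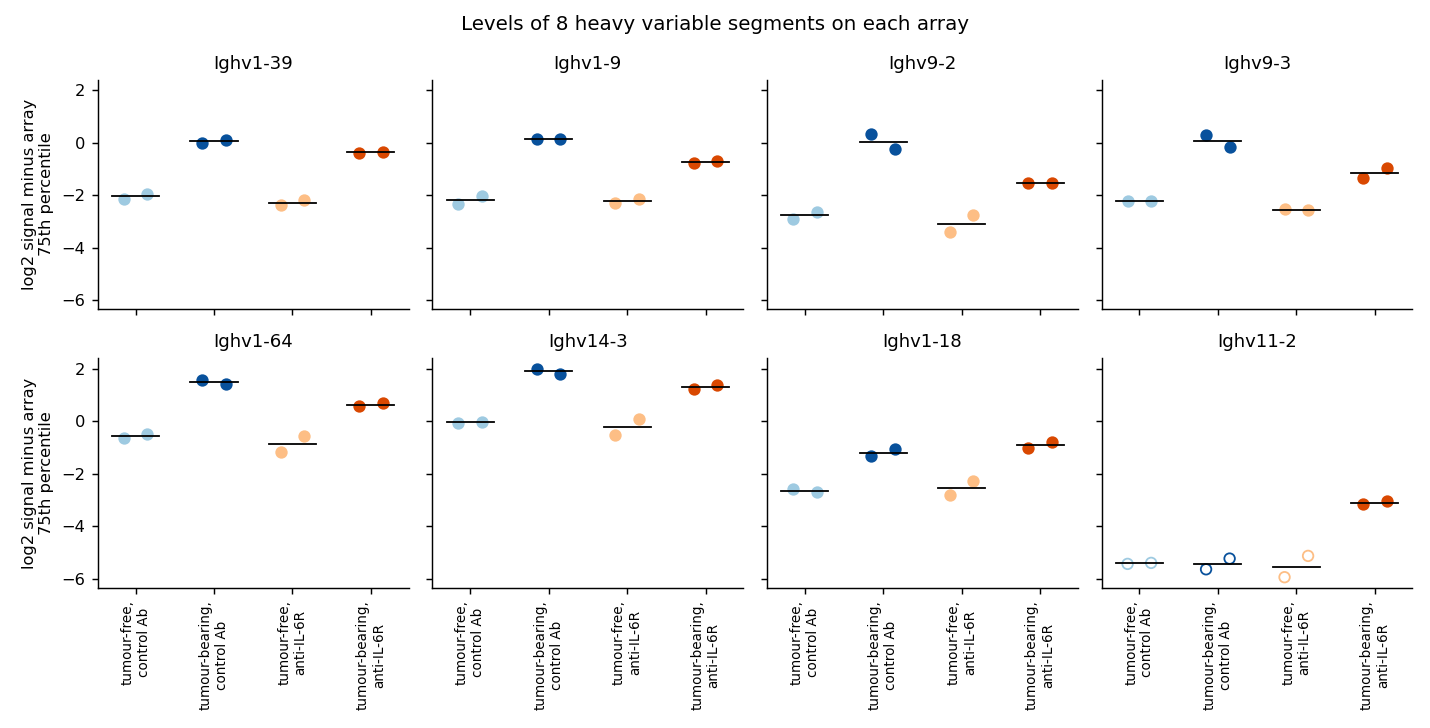
Level of 8 heavy variable segments on each array (log2 signal minus the array's 75th percentile); points are arrays, filled where well above background, and bars are group means of 2 arrays. 7 segments are higher in both tumour-bearing groups, while Ighv11-2 is well above background only on the arrays of tumour-bearing mice given anti-IL-6R, at -3.15 and -3.06.

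Some of the largest fitted differences belong to members that were dim in tumour-free mice, and for these only a bound is firm. The bound sets the mean of the bright arrays against the lowest signal well above background on each dim array, or the probe's own signal where that is higher. Ighv1-58 was not well above background in tumour-free mice (-4.33 and -4.35) and reached -1.84 and -1.60 with a tumour, at least 4.73-fold higher (adjusted p = 0.0093). Ighv5-16 went from -4.73 and -5.66, not well above background, to -1.49 and -2.01, at least 4.64-fold higher (adjusted p = 0.026). Of the 62 called members, 8 had such a dim group. Ighv8-5 was well above background on 1 of the 2 tumour-free arrays and went from -4.84 and -3.09 to -0.68 and -1.04 (adjusted p = 0.019).

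Members called higher occurred in most V families (the number after Ighv in the name). Members on all arrays rose in V1, V2, V5, V8, V9, V10 and V14. V1, the largest family of this locus, had 46 members, of which 39 rose, with a median difference of 1.86. In V5, 6 of 7 rose (median 1.81) and in V14 3 of 4 (median 2.17). In V8, 5 of 6 rose (median 2.53) and in V9 2 of 4 (median 2.46). Members on all arrays numbered 32 in V1, 3 in V5, 1 in V14, 1 in V8 and 2 in V9. The V1 median includes Ighv1-14, Ighv1-63 and the dimmer Ighv1-7 probe, none of them called. The V8 values include Ighv8-13, which rose, and Ighv8-2, and the V9 median includes Ighv9-1 and Ighv9-4. These members were kept only through the tumour-bearing group with control antibody, so they do not count as support. The same holds for Ighv3-6, which rose in V3. Both V10 members rose by little: Ighv10-3 went from -1.67 and -1.54 to -1.03 and -0.83, a difference of 0.68 ± 0.13 (adjusted p = 0.031), and Ighv10-1 differed by 1.19. In V2, only Ighv2-2 of 5 members passed, and the single members of V4 and V6 did not pass, with differences of 1.22 and 1.06. The single member of V7, Ighv7-3, did not pass either, with a bound of at least 1.76-fold (adjusted p = 0.14). It was not well above background in tumour-free mice with control antibody. It too was kept only through the tumour-bearing group with control antibody and does not count as support. The single member of V13, Ighv13-2, was kept only through the tumour-bearing group with control antibody, so its difference does not count as support: it went from -5.81 and -6.07, not well above background, to -3.74 and -2.84, at least 1.59-fold higher (adjusted p = 0.036). The candidates of V12, V15 and V16, 1 each, were left out as dim. Of the 5 kept pseudogene-listed segments 2 rose (Ighv1-2 and Ighv1-33), and of the 3 cDNA clone probes 1 rose.

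**Figure D2:**
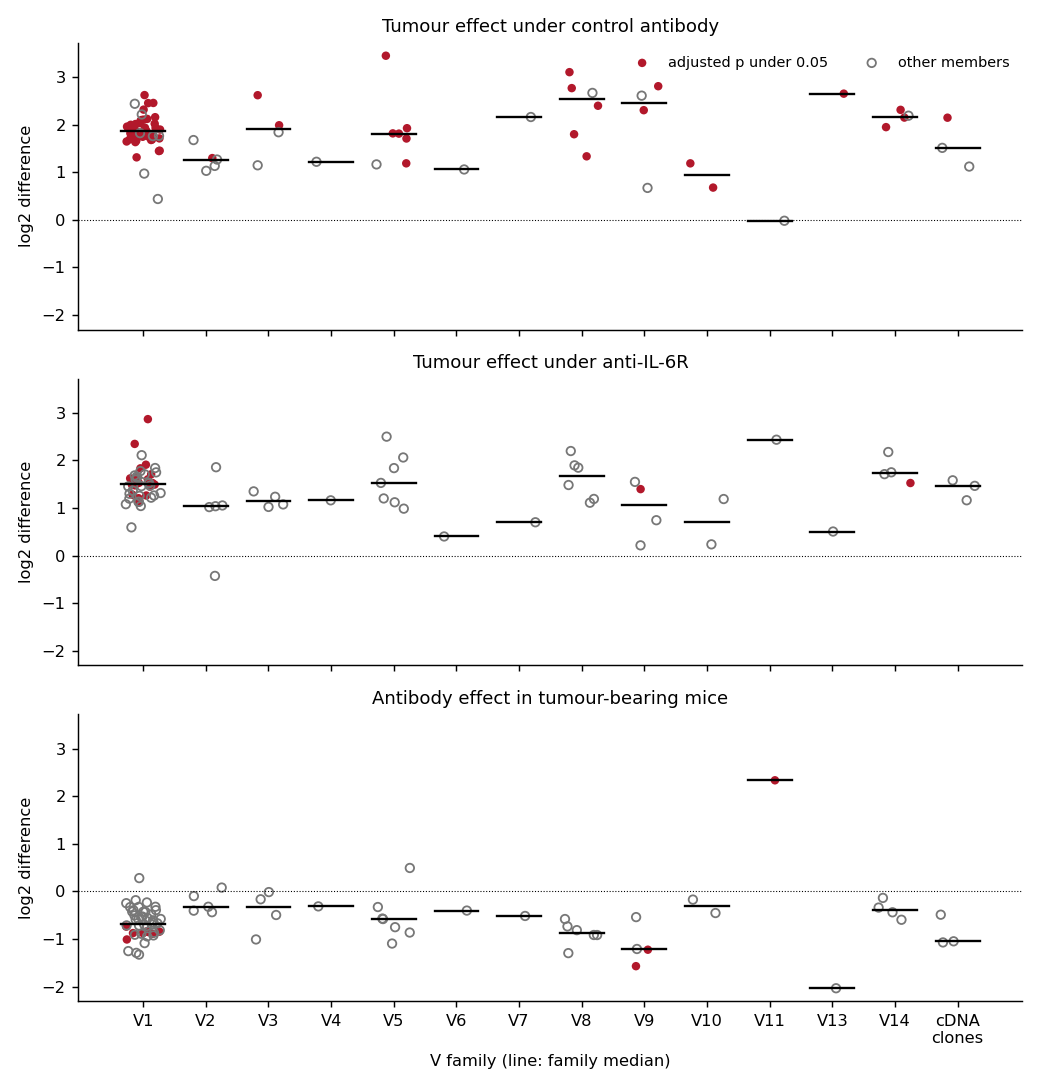
Log2 difference of each of the 86 member probes (points) by V family in 3 comparisons, filled where the adjusted p was under 0.05; lines are family medians. Every family median except that of V11 lies well above 0 in the upper panel, and all but that of V11 lie below 0 in the lower panel.

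Differences were also set beside the sequence that probes share. Ighv1-73 and Ighv1-83 differed by 2.02 and 2.03, Ighv1-15 and Ighv1-23 by 1.69 and 1.88. The 31 members that shared no run of 20 bases had a median difference of 1.80 with 16 called higher, and the other 55 had 1.85 with 46 called higher. Where 2 kept probes read 1 segment, those of Ighv1-55 gave 1.85 and 1.80 and those of Ighv1-37 gave 1.68 and 1.31, all called. The Ighv8-8 probes, which lie end to end with 1 base between them (chr12:116532348-116532407 and chr12:116532287-116532346), disagreed.
Ighv8-8 first: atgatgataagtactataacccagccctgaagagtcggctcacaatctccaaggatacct
Ighv8-8 second: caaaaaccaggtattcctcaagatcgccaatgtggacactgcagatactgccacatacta
The first gave 1.33 ± 0.21 (adjusted p = 0.014) and the second 2.77 ± 0.34 (adjusted p = 0.0058); the difference between them was not tested. For Ighv1-7 the brighter probe rose, and the other, well above background on 4 arrays, differed by 0.97 (adjusted p = 0.40). These 2 probes start at bases 300 and 2 of the transcript, so they read different parts of it.

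These counts depend on few arrays. Without replicate 2 or without replicate 3 the number of members called higher fell from 62 to 36, and 32 of the 62 held without each array in turn. With the normexp background correction 65 were called, but the median difference over the 86 members was 1.13 in place of 1.83.

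Under anti-IL-6R, heavy variable segments were again higher in tumour-bearing than in tumour-free mice. Of the 43 members on all arrays, 20 rose and none fell, with a median difference of 1.49 against -0.06 over all such probes, of which 0.178% were called higher and 0.00356% lower. An unadjusted p under 0.05 was found for 75 of the 86 members and 7.43% of all kept probes. Over the 86 members 22 were called higher and none lower, where the shares of all kept probes were 0.181% and 0.0281%. The 22 were 20 V1 members with Ighv9-3 and Ighv14-3, and all 22 were also called higher under control antibody, where they make up 35.5% of the calls.
Ighv1-39 again had the smallest adjusted p. Its level was -2.36 and -2.19 in tumour-free mice and -0.38 and -0.35 in tumour-bearing mice, a difference of 1.91 ± 0.12 (SE; adjusted p = 0.0011). Ighv1-23 went from -4.50, not well above background, and -3.50 to -1.60 and -1.70, a difference of 2.35 ± 0.30 (adjusted p = 0.033). Ighv1-58 went from -4.89 and -5.63, not well above background, to -2.89 and -1.89, at least 2.88-fold higher (adjusted p = 0.034). For these members no tumour-bearing array overlapped a tumour-free array. The same held in this direction for 42 of the 43 members on all arrays, 77 of the 86 members and 16% of all kept probes.

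Members below 0 or close to it were few. Ighv2-9-1 had the only negative difference, -0.43 (adjusted p = 0.82), with levels of -1.41 on replicate 5 and -3.92 on replicate 6; without replicate 5 it was 0.83. Ighv9-4, Ighv10-3 and Ighv6-3 differed by 0.22, 0.24 and 0.40, none past the threshold.
With normexp the median difference over the 86 members was 0.76 in place of 1.47. The number of calls was not stable: 42 of the 86 were called with each array centred on its median or without replicate 6, 5 without replicate 1 or 2, 4 without replicate 3 or 4, 1 without replicate 7 or 8, 4 with no filter on dim probes, 2 without the intensity trend and 1 when only these 4 arrays were fitted. Ighv1-39 alone remained called without each of the 8 arrays.

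**Figure D3:**
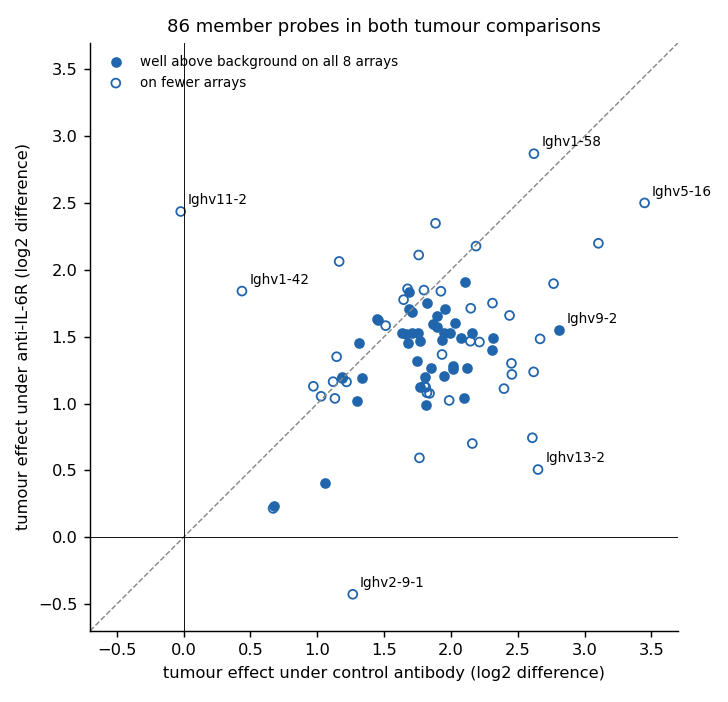
Tumour effect of each of the 86 member probes under control antibody (x axis) and under anti-IL-6R (y axis), both as log2 differences; filled points are the 43 members on all arrays and the dashed line marks equal differences. 65 members lie below the line and 21 above it, with Ighv11-2 alone near 0 on the x axis and at 2.44 on the y axis.

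The tumour comparisons under each antibody share no array. Across the 43 members on all arrays their differences had a Pearson correlation of 0.51, and across all 86 members 0.26; this describes probes that share arrays and sequence. The difference was larger under control antibody in 36 of the 43 members on all arrays. Over all 86 it was larger in 65, but 13 of these 86 were kept only through the tumour-bearing group with control antibody, and the number with the larger difference under anti-IL-6R was 21 with all arrays and 34 without replicate 6. The test of that contrast, the host by antibody interaction, called none of the 86 members in limma, where 0.00624% of all kept probes were called higher and 0.0187% lower; 16 members had an unadjusted p under 0.05, where 23.6% of all kept probes did. That number was not stable: without replicate 5 it was 38 of the 86 members and 4976 of the 32041 probes, with array median centring 30 and 8181, and with normexp 29 and 7555. On probes well above background on all arrays the shares were 0.00356% and 0.00712%, and none of the 43 members was called. The smallest adjusted p below 0 (a smaller tumour effect under anti-IL-6R) were those of Ighv1-9 (-0.82 ± 0.19, adjusted p = 0.096), Ighv1-66 (-0.86, adjusted p = 0.099) and Ighv9-2 (-1.26, adjusted p = 0.11). Above 0 the smallest p were those of Ighv11-2 (2.46, adjusted p = 0.10), Ighv1-42 (1.41, adjusted p = 0.38) and Ighv5-15 (0.90, adjusted p = 0.48). With array median centring, 2 members, Ighv1-9 and Ighv1-66, were called lower; that centring moved the median of all probes in this contrast from -0.07 to -0.26.

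In tumour-bearing mice, a part of the segments was lower with anti-IL-6R than with control antibody. Of the 43 members on all arrays, 10 fell and none rose, where 2.94% of all such probes were called lower and 1.48% higher; their median difference was -0.60 against -0.04. These 10 were Ighv9-2, Ighv9-3 and the V1 members Ighv1-9, Ighv1-47, Ighv1-50, Ighv1-56, Ighv1-62-3, Ighv1-64, Ighv1-66 and Ighv1-81, all among those that rose in the tumour comparison with control antibody, with which this comparison shares replicates 3 and 4. Over the 86 members 10 were called lower and 1 higher, where the shares of all kept probes were 2.76% and 1.51%. Other lists moved in this comparison too. In the erythroid list 7 of 9 genes fell (median -1.78), as did 5 of 8 neutrophil genes (median -2.38) and 2 of 16 plasma cell genes. So did 13 of 64 kappa variable probes and, by the brightest probe, 3 of 8 heavy constant genes. For Ighg2c, 1 of these 3, the other 2 probes were not called (adjusted p = 0.17 and 0.092). The heavy constant gene Ighd rose by its brightest probe (0.73, adjusted p = 0.040) but not by its other (0.44, adjusted p = 0.16). Of 16 B cell genes 2 rose. The part of these lists in the result was not tested. The arrays did not overlap and lay lower in 39 of the 43 members on all arrays and in 65 of the 86, a pattern of 34.1% of all kept probes. The 65 can include members kept only through the tumour-bearing group with control antibody, 13 of the 86, which do not count as support.
Ighv9-2 went from 0.32 and -0.24 with control antibody to -1.53 and -1.53 with anti-IL-6R, and fell by 1.57 ± 0.25 (adjusted p = 0.028). Ighv9-3 went from 0.30 and -0.15 to -1.35 and -0.95, and fell by 1.22 ± 0.19 (adjusted p = 0.027). Ighv1-50 went from -0.46 and -0.38 to -1.51 and -1.34, and fell by 1.01 ± 0.18 (adjusted p = 0.030). Even so, each of these members stayed above its own level in tumour-free mice on every array. Ighv1-18, at -1.34 and -1.05 with control antibody and -1.04 and -0.79 with anti-IL-6R, was the only member on all arrays with a difference above 0 (0.28, adjusted p = 0.41).

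Ighv11-2 was the only member called higher, and it had been kept only through the group in which it was high, so the call is a description of a member chosen by that level. Its level lay between -5.95 and -5.13 on the 6 arrays of the other groups, not well above background on any of them, and was -3.15 and -3.06 in tumour-bearing mice given anti-IL-6R. It was at least 2.43-fold higher there than in tumour-bearing mice with control antibody (fitted difference 2.34 ± 0.43, adjusted p = 0.033). Against tumour-free mice with anti-IL-6R it was at least 1.75-fold higher (fitted 2.44 ± 0.43, adjusted p = 0.099), past no threshold. No other member was well above background in this group alone.
All 11 calls of this comparison were lost under some alternatives: none was called with no filter on dim probes, without the intensity trend, or without replicate 3 or replicate 8, 2 were called without replicate 4 and 3 without replicate 7, while 35 were called with array median centring, 21 with normexp, 27 with only these 4 arrays and 26 without replicate 5 or 6. Across its alternatives the adjusted p of Ighv11-2 ranged from 0.019 to 0.18.

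In tumour-free mice, anti-IL-6R changed no member past the threshold in limma, where 0.025% of all kept probes were called higher and 0.00624% lower (0.0107% and 0.00356% of those on all arrays). At an unadjusted p under 0.05 there were 7 members, against 8% of all kept probes. The arrays did not overlap and lay lower in 19 members, against 16.9% of all kept probes, and the median difference of the 43 members on all arrays was -0.28 against 0.03. The lowest p below 0 were those of Ighv8-12 (-0.97, adjusted p = 0.54), Ighv1-42 (-2.0, adjusted p = 0.56) and Ighv1-23 (-0.79, adjusted p = 0.61). Above 0 they were those of Ighv2-9-1 (1.77, adjusted p = 0.61), Ighv9-1 (1.33, adjusted p = 0.64) and Ighv3-2 (0.75, adjusted p = 0.67). The shift of the members rested on replicate 5: over all 86 the median was -0.26, without replicate 5 it was 0.05 with 51 members above 0, and without replicate 6 it was -0.56 with 37 members at an unadjusted p under 0.05 and 1 called lower. Ighv1-42 rested on replicate 2, at -1.79, where the other tumour-free arrays lay between -5.53 and -3.83.

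By position, members on all arrays rose along the whole locus under control antibody. Distances were counted from the candidate probe with the lowest coordinate, the side nearest the D, J and constant segments. The farthest probe, Ighv1-33 at 2430.9 kb, lies out of the order of the names. Ighv1-31 and Ighv1-36 lie at 1250.7 and 1301.4 kb, and the next farthest probe is that of Ighv1-85, at 2421.5 kb. Whether the name or the coordinate of Ighv1-33 is at fault was not tested. In the first 800 kb, 28 of 40 candidates were kept and 15 rose under control antibody (median difference 1.83). From 800 to 1600 kb, 29 of 37 were kept and 23 rose (median 1.74), and beyond 1600 kb all 26 were kept and 23 rose (median 1.98). In order of distance, these windows held 7, 21 and 15 members on all arrays, and all of these but Ighv6-3 rose. Ighv3-6 and Ighv13-2, counted as rising in the first 800 kb, were kept only through the tumour-bearing group with control antibody. So was Ighv8-13, counted as rising beyond 1600 kb. These members do not count as support. Over the 43 members on all arrays, Spearman's correlation of distance with the difference was 0.27 under control antibody and 0.01 under anti-IL-6R. Over the 32 V1 members among them it was 0.26 and -0.49. These correlations only describe neighbouring, similar segments on the same arrays. Under anti-IL-6R, 2, 11 and 9 members rose in the 3 windows, in order of distance.

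**Figure D4:**
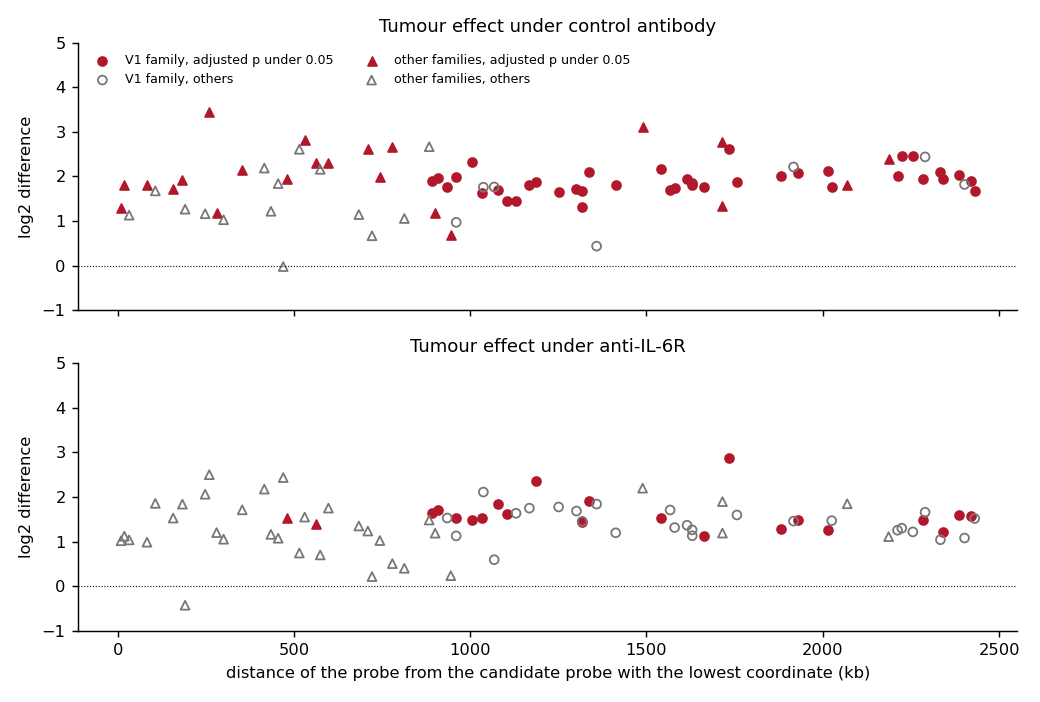
Log2 difference of the 83 kept probes with a position against distance along the heavy chain locus (kb) in both tumour comparisons; circles are V1 members, triangles other families, filled where the adjusted p was under 0.05. Differences near 2 occur along the whole 2431 kb under control antibody.

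The constant regions, which are transcribed together with the joined V segment, divided by class. Of 8 heavy constant genes measured, each by its brightest kept probe, 5 rose in tumour-bearing mice with control antibody: Ighg1, Ighg2b, Ighg2c, Ighg3 and Ighe. Ighg2c went from 0.39 and 0.09 without a tumour to 6.00 and 6.10 with one, a difference of 5.81 ± 0.18 (adjusted p = 5e-06), and its other 2 probes gave 6.31 and 6.02. Ighg1 was not well above background in tumour-free mice (-3.85 and -4.76), against 2.20 and 2.62 with a tumour, at least 82.8-fold higher (adjusted p = 2.6e-05).
The unswitched classes, Ighm and Ighd, were not called higher. Ighm differed by 0.43 ± 0.15 (adjusted p = 0.13), its other 2 probes by 0.20 and -0.27. Ighd fell by 0.88 ± 0.15 (adjusted p = 0.017) by its brightest probe, and its other probe was not called (-0.57, adjusted p = 0.11). Igha, a switched class, was not called either: at 5.55, 5.54, 7.17 and 5.74 on replicates 1 to 4, it differed by 0.91 (adjusted p = 0.22). Under anti-IL-6R, Ighg1, Ighg2b and Ighg2c rose (5.04, 4.18 and 3.92), and Ighe, not well above background in tumour-free mice, rose at least 3.13-fold (adjusted p = 0.0069), while Ighg3 differed by 1.08 (adjusted p = 0.59). Of 64 kappa variable probes, 48 rose under control antibody (median 1.20) and 5 under anti-IL-6R (median 0.85).

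Genes of plasma cells and of B cells moved in opposite directions beside the variable segments. Of 16 plasma cell genes, 7 rose in tumour-bearing mice with control antibody and none fell. Jchain, which joins polymeric antibodies, went from 2.15 and 2.18 to 3.99 and 3.86 (1.76, adjusted p = 0.016), and was 1.40, 2.54, 3.25 and 3.21 on replicates 5 to 8. Mzb1, a chaperone of antibody secretion, rose by 1.22 (adjusted p = 0.0059) and Derl3, of endoplasmic reticulum quality control, by 1.60 (adjusted p = 0.00098), Xbp1, the secretory transcription factor, by 0.51 (adjusted p = 0.019). Tnfrsf17, a plasma cell survival receptor, was not well above background in tumour-free mice and rose at least 1.60-fold (adjusted p = 0.036). Sdc1 had a fitted difference of 2.73 (at least 1.81-fold, adjusted p = 0.061) and Prdm1 by 0.28 (adjusted p = 0.25).
Of 16 B cell genes, 7 fell and none rose, with Ms4a1 at -0.74, Cd79a at -0.84 and Ebf1 at -1.32. Their summed signal, in multiples of the array's 75th percentile, was 68.7 to 87.7 without a tumour and 43.6 to 61.7 with one under control antibody, and 75.7 to 76.5 and 74.0 to 78.4 under anti-IL-6R. For the plasma cell genes it was 76.5 to 78.3 and 104 to 112 with control antibody and 79.6 to 83.3 and 85.2 to 91.4 under anti-IL-6R. Under anti-IL-6R no gene of either list was called in the tumour comparison, where some variable and some switched constant segments were. Not being called does not show that these genes stayed level. Jchain, Mzb1 and Derl3 differed by 1.26, 0.67 and 0.73 (adjusted p = 0.29, 0.28 and 0.081). Edem1, Eaf2, Creld2 and Sec11c lay below 0, and the median of the plasma cell list was 0.16.

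Other cell types' genes moved too. All 9 erythroid genes rose with control antibody and a tumour (median 2.79), and 5 of 8 neutrophil genes did (median 2.33), with none called under anti-IL-6R (medians 0.11 and -0.19). In the erythroid genes the summed signal was 4.87 to 6.86 and 27.5 to 56.9 with control antibody, and 8.34 to 12.1 over the 4 arrays under anti-IL-6R; in the neutrophil genes it was 33.2 to 52.9 and 119 to 126, and 37.4 to 151 and 34.9 to 52.5. Of 11 pan T cell genes 1 (Cd5, 0.39) rose. Of the germinal centre genes, S1pr2 and Bcl6 rose (0.77 and 0.55). Of the pre-B list 4 of 8 genes were measured and none was called, and Rag1, Rag2, Igll1 and Erg met the background criterion in no group. No gene was called among 6 of macrophages and 4 of dendritic cells, and among 5 of NK cells 1 rose and 2 fell. The part of these cells' genes in the variable segment results was not tested.

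**Figure D5:**
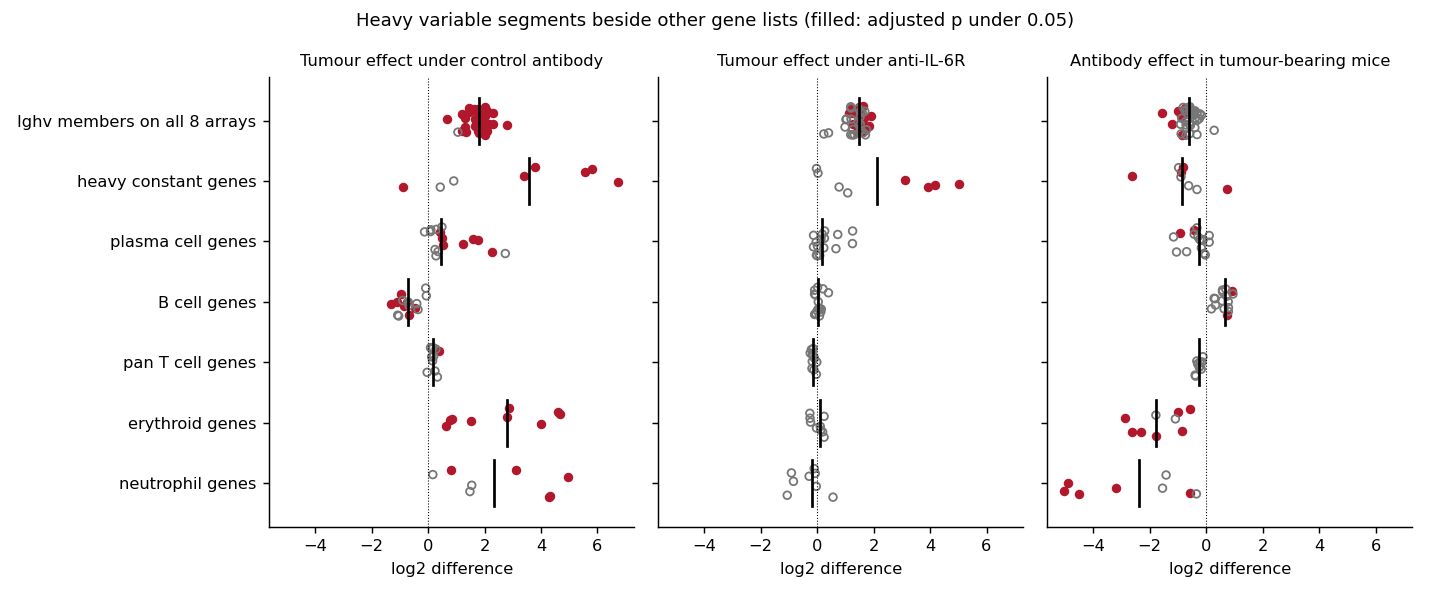
Log2 differences in 3 comparisons for the 43 heavy variable members on all arrays and for the genes of 6 lists (points; filled where the adjusted p was under 0.05; black lines are medians). The variable members sit near 1.82 and 1.49 in the tumour comparisons, while the erythroid and neutrophil medians go from 2.79 and 2.33 under control antibody to 0.11 and -0.19 under anti-IL-6R.

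Single arrays carried some members. A gap between the replicates of a group of over 2 on the log2 scale, with the higher array well above background, occurred 7 times among the members. In tumour-bearing mice with anti-IL-6R there were 4 of 86 (0.253% of all kept probes in that group): Ighv14-2 was 0.35 on replicate 8 and -2.26 on replicate 7, Ighv2-5 was -1.17 on replicate 7 and -3.72 on replicate 8, and Ighv8-2 and Ighv9-4 had gaps of 2.19 and 2.16. Ighv14-2 lay between -3.71 and -0.45 on the other arrays, so its highest level of the 8 was on that 1 array. In tumour-free mice with anti-IL-6R, Ighv2-9-1 and Ighv1-78 had gaps of 2.51 and 2.14.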

How the data were processed

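Each sample was hybridised to a 1-colour Agilent array with cyanine-3 cRNA from 0.1 µg of RNA, per the labels' protocols. The deposited scanner files hold spot intensity values and the submitters' processing notes name Agilent Feature Extraction, version 10.10.1.1. Log2 values are also deposited as a table, and the sources used here do not say how they were made; set against the scanner values, each column was the log2 signal minus the array's 75th percentile with a median offset of -0.0081 to -0.0017 (Pearson r = 1.0; column medians -3.34 to -3.09), which settles scale, centring and direction.

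Outlier-flagged spots (60 to 95 an array) were removed, repeated spots were averaged by probe, and 56587 probes remained, of which 32041 were kept. Group differences were tested per probe in limma 3.58.1 (R 4.3.3) over all 8 arrays with 4 group means and an intensity trend, two-sided, with Benjamini-Hochberg adjustment over the 32041 probes and a threshold of 0.05 (4 residual and 4.28 prior degrees of freedom). The fit was tested on simulated data of these 32041 probes: 82 of 100 probes changed by 2 on the log2 scale and 49 of 100 changed by 1 were recovered, with 7 false calls. For genes of a list, the brightest kept probe over all arrays was used. Precision is limited by 2 arrays a group. Tables and plots were made in Python 3.11.15 (pandas 2.3.3, matplotlib 3.10.9).

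The members, lists and tests were chosen with earlier results of these data known. Named members were, per comparison and direction, up to 10 called with the largest difference, at least 2-fold and with arrays that did not overlap; the 3 with the smallest p where fewer than 3 were called; the 5 with the highest mean; the brightest of each V family; and segments with more than 1 kept probe. Ighv1-33, Ighv1-73, Ighv2-2, Ighv5-12-4, Ighv14-2 and other members outside this rule were chosen after their values were seen, and so were the windows of distance and the printed sequences. Some genes of the lists are not reported here.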

Additional observations from a re-analysis of the deposited data

Results flagged for a closer look

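Candidate probes left out of the tests were searched for arrays on which they were well above background while they were so on neither array of tumour-free mice with control antibody. There were 6 such probes, all outside the comparisons. Ighv2-7 was -1.10 on replicate 5 (tumour-free, anti-IL-6R), where its other tumour-free level in that group was -6.17 and its highest level in tumour-free mice with control antibody was -5.99. Ighv7-2 was -2.96 on replicate 4 and Ighv3-1 was -3.47 on replicate 3, both tumour-bearing with control antibody. Ighv2-6 was -3.34 on replicate 7, tumour-bearing with anti-IL-6R. Each of these 4 was well above background on that array alone. Ighv1-24, at -3.79, and Ighv6-5, at -3.95, both highest on replicate 4, were so on 2 arrays. None of the 6 was tested.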

How the results depend on the processing

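Directions held widely: of 1003 recomputed results for 58 named pairs of a member and a comparison, 828 kept direction and side of the threshold, 158 lost the call, 10 gained it and 7 changed sign, none of these called in either fit. The sign changes were Ighv11-2 under control antibody (0.062 with array median, 0.039 with normexp, -0.226 to 0.182 without 1 array), the second Ighv1-7 probe there (-0.017 to 1.958 without 1 array), Ighv2-9-1 under anti-IL-6R (-1.681 to 0.828 without 1 array) and Ighv5-15 in the antibody effect in tumour-bearing mice (-0.093 to 1.081 without 1 array). Counts of members called moved more, and the cause was not tested. For the tumour effect under control antibody they ranged from 36 to 66 without 1 array (47 without replicate 1 or 4, 36 without 2 or 3), and no other setting moved them by over 1.5 times. For the tumour effect under anti-IL-6R they were 42 with array median, 4 with no filter, 2 with no intensity trend and 1 with only the groups compared, and 1 to 42 without 1 array. For the antibody effect in tumour-bearing mice they were 35 with array median, 21 with normexp, 0 with no filter, 0 with no intensity trend and 27 with only the groups compared, and 0 to 26 without 1 array. For the antibody effect in tumour-free mice they were 0 to 1 without 1 array, the 1 without replicate 6. For the interaction array median gave 2. Array median centring moved the median of all probes by over 0.1 in the antibody effect in tumour-bearing mice (-0.04 to -0.20) and in the interaction, and by about that in the tumour effect under anti-IL-6R (-0.05 to -0.15). A fit without 1 array leaves a lone sample, which is assumed to vary like the other groups. The slide as a block was not run, since all arrays share 1 slide. No paired analysis was possible because the labels number the arrays 1 to 8, no groups share a number and arrays are not tied to experiments. Signals near background limit the precision of dim members.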
